A study of Homo sapiens with 9 samples.

Results

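Treated T84 cells, the state in which the series' design text places most of the GM35 epitope, were compared with Caco-2 cells, the line it describes as lacking that epitope. The samples were chosen by their titles: the 3 arrays of interferon-treated T84 cells and the 3 of untreated Caco-2 cells, 6 of the 9 arrays in the series, over all 1259 probe sets. T84 and Caco-2 are established human colon carcinoma lines grown as intestinal epithelium. The treated T84 cells had received interferon gamma at 100 U/ml for 24 hours, and the labels do not give their passage or confluence. The Caco-2 cells were untreated, at passage 37 and 90% confluent in 6-well plates. A further 3 arrays of untreated T84 cells, at passage 68 and about 90% confluent in 6-well plates, are given beside the pair for part of the genes. They are given because line and treatment differ together in the pair and cannot be told apart from these 6 arrays alone. Where a gene has no untreated T84 value below, its difference is of line and treatment together. It then does not show the direction of either. No genotype or transgene is named for any group. Replicates are numbered, but no label says that they came from separate cultures. The p-values therefore measure the spread between arrays, which may be technical.

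GM35 recognises a sialylated form of a CD44 splice variant. CD44 is the main cell surface receptor for hyaluronan, and its variant exons carry many serine and threonine residues to which O-glycans are attached. O-glycosylation starts with a GalNAc transferase, proceeds through core and branching enzymes, and often ends with sialic acid, which is made from UDP-GlcNAc, activated with CMP, carried into the Golgi and transferred by sialyltransferases. Interferon gamma, released by T cells and natural killer cells, acts on epithelium through a receptor pair and is known for raising chemokines and antigen presentation genes.

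The largest upward differences of the comparison were the CXCR3 chemokine genes CXCL10, CXCL9 and CXCL11, which treated T84 cells held at far higher signal than Caco-2. Their upstream sequences are shown first, with that of ICAM1, because these genes were higher in treated T84 cells than in either of the other groups. The rule for this display took the 4 largest differences of the interferon list. The fourth of these, LAMP3, was not in the promoter table used here, and ICAM1 was put in its place after its values and sequence had been seen. Each line gives the 250 bases before the RefSeq start of the gene, 5′ to 3′, from the RefSeq promoter table of GRCh38.p14: chr4:76023498-76023747 on the minus strand for CXCL10, chr4:76007510-76007759 on the minus strand for CXCL9, chr4:76036071-76036320 on the minus strand for CXCL11 and chr19:10270870-10271119 on the plus strand for ICAM1. Capitals mark matches to 3 motifs searched on both strands.
CXCL10: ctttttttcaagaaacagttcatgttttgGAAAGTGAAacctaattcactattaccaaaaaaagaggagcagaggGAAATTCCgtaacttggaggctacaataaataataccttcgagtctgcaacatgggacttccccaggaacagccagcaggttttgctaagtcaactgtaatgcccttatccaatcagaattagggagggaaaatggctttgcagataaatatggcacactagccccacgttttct
CXCL9: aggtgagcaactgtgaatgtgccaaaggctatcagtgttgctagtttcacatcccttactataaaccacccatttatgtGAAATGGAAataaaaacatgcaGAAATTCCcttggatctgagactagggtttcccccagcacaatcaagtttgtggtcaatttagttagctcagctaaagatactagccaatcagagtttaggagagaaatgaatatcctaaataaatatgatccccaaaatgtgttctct
CXCL11: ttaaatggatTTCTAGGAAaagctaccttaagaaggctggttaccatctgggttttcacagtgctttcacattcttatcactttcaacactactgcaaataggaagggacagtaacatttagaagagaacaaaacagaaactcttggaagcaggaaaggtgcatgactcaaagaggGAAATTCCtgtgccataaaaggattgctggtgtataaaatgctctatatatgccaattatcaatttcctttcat
ICAM1: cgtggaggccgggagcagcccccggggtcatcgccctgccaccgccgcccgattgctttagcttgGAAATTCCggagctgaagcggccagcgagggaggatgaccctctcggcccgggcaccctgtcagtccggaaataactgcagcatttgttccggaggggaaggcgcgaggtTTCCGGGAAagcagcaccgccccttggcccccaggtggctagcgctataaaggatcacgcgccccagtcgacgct
The first motif was GAAANNGAA (TTCNNTTTC on the other strand), a core of interferon response elements. It was found at bases -221 to -213 of CXCL10 as GAAAGTGAA and at -171 to -163 of CXCL9 as GAAATGGAA. The second, TTCNNNGAA, the gamma activated site, was found at -240 to -232 of CXCL11 as TTCTAGGAA and at -75 to -67 of ICAM1 as TTCCGGGAA. The third, GAAATTCC (GGAATTTC on the other strand), a kappa B type sequence chosen after these promoters had been read, was found in each of the 4, at -175 to -168, -149 to -142, -74 to -67 and -185 to -178. No match overlapped another. Among 35116 promoters of the table, in windows of the same length, 6.88% held the first motif, 6.57% the second and 0.963% the third. Of the 19 measured genes of the interferon list 15 were in the promoter table. A match describes letters in a window and is neither a shown binding site nor a cause of the values below.

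Arrays of a group were alike. Correlations across probe sets, which are not replicates, ran from 0.996 to 0.999 within treated T84, from 0.987 to 0.999 within Caco-2 and from 0.903 to 0.916 between them. Array medians lay between 6.70 and 6.80 log2 units, Caco-2 replicate 1 stood farthest from its group, and the 3 arrays per group limit the precision. The values carry no detection call, so a low signal is not shown to be above background, and signals of different probe sets are not compared as levels. In bulk RNA, fewer cells of a type and less RNA per cell cannot be told apart. Of 12 intestinal epithelial markers only LGALS4, MUC13 and MUC1 were measured, and their mean signal was 11.84 to 11.89 over the treated arrays against 8.32 to 8.46 over the Caco-2 arrays. The 6 measured of 17 leukocyte markers averaged 5.74 to 5.81 against 5.58 to 5.74, and the 8 measured of 12 fibroblast and endothelial markers 4.58 to 4.65 against 4.92 to 5.12, among which PDGFRA was at 4.67 ± 0.07 in treated T84 and 6.26 ± 0.58 in Caco-2 (SD, n = 3). Their part in the results was not tested. By the suffix of their probe sets, NEU1, PTN and ST3GAL2 may cross-hybridise with other genes, and AGRN, AHSG, ASGR1, B3GALNT1, B3GNT9, B4GALNT4, CCL3, CD74, COLEC12, CXCL14, DLL3, DPAGT1, FGF13, FGFR1, FGFR2, FUT2, GBGT1, GCNT1, GCNT2, GDF15, GM2A, GPC3, IDS, IFNAR2, IGFBP2, IGFBP3, JAG1, LFNG, MUC4, MUC6, NANS, PAPSS1, PIGC, PIGM, RENBP, RPL41, RPN2, SLC35A1, SLC35A3, ST3GAL1, ST3GAL5, ST3GAL6, ST6GALNAC3, ST6GALNAC4, ST8SIA4, TNFSF13B and UGT1A1 are read by sequences shared among transcripts.

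Of 1259 probe sets, treated T84 had 244 above and 330 below Caco-2 by the moderated test of limma (Benjamini-Hochberg adjusted p below 0.05 over them all, n = 3 per group). These were 19.4% and 26.2% of those tested, 45.6% in either direction. By at least 2-fold, 94 were higher (7.47%) and 121 lower (9.61%), 17.1% in all. With 1 probe set per gene, 185 of 927 genes were higher and 264 lower. List counts below use 1 probe set per gene, while the background shares beside them are of all 1259 probe sets. That background includes 216 probe sets without a gene name, of which 37 were higher and 31 lower, so small distances from it are not read. The scale bears on small differences. The 42 measured ribosomal protein genes were on average -0.43 log2 units different in treated T84, and centring every array on their mean moved the median difference of all probe sets from 0.02 to 0.45 and the calls to 903 higher and 182 lower (83.2% of calls higher against 42.5%). Centring on their median gave 736 higher and 235 lower. Either centring shifts every gene upward by nearly the same amount, so the direction of this change in the calls follows from the shift itself. Of the 264 genes called lower, 146 were still called lower after the first centring, and 73 changed sign. Gene list counts below are therefore followed by those after centring on the ribosomal mean, and no list of genes was tested as a set.

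**Figure D1:**
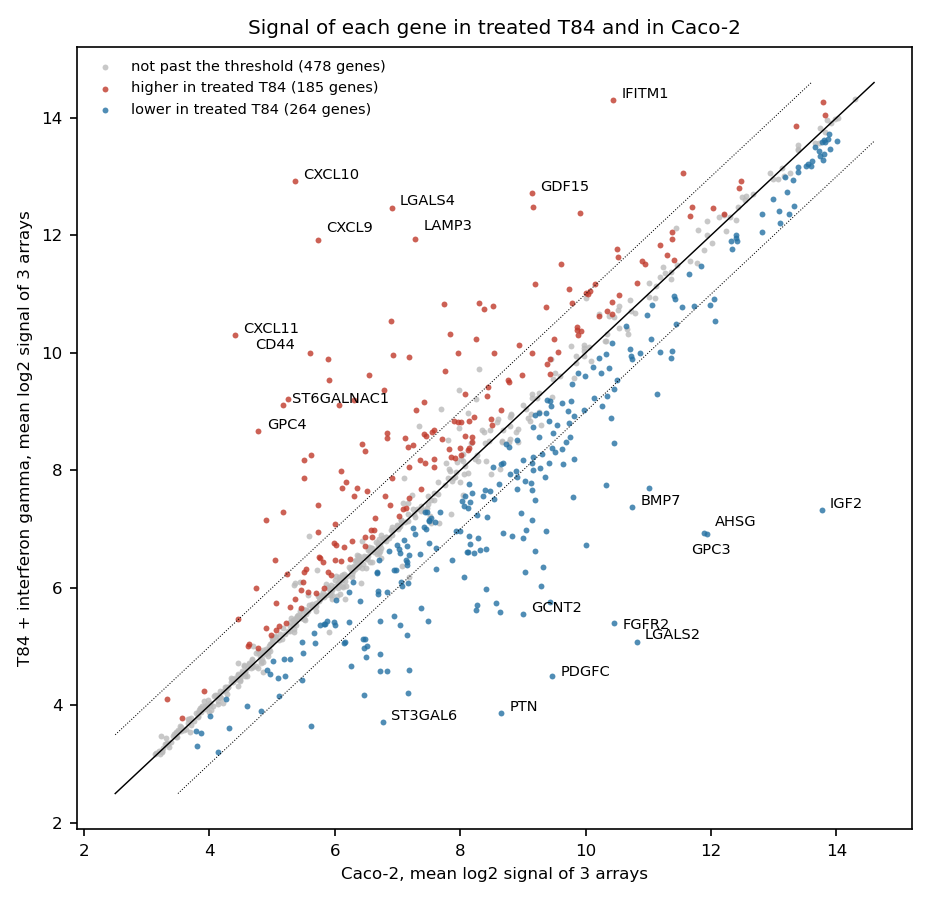
Each point is 1 of 927 genes, with its mean log2 signal over 3 Caco-2 arrays on the horizontal axis and over 3 arrays of T84 cells given interferon gamma on the vertical axis. Colours mark the 185 genes higher and 264 lower at a limma adjusted p below 0.05 on the scale as deposited, the solid line is equality and the dotted lines are a 2-fold difference.

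CD44 showed the sixth largest difference upward. Its log2 signal was 10.09, 9.90 and 9.99 on the treated T84 arrays, 10.41, 10.21 and 10.21 on the untreated T84 arrays and 5.78, 5.65 and 5.38 on the Caco-2 arrays. Every T84 array lay above every Caco-2 array by more than the spread within any group. The difference of treated T84 from Caco-2 was 4.39 ± 0.11 log2 units (SE), or 21.0-fold (95% interval 17.6 to 24.9; limma adjusted p = 8.64e-09, n = 3 per group). The probe set reads CD44 as a gene and does not tell its splice variants apart, so variant 6 was not analysed here.

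Enzymes and receptors of hyaluronan, the ligand of CD44, differed in both directions. Of 9 measured genes of this list, CD44 among them, 2 were higher (background 19.4%) and 3 lower (background 26.2%), or 5 and 2 after ribosomal centring. HAS3, a hyaluronan synthase gene, was at 9.36 ± 0.13 in treated T84, 9.46 ± 0.02 without treatment and 6.78 ± 0.04 in Caco-2 (SD, n = 3), a difference of 2.58 ± 0.06 log2 units. Its other probe set, shared among transcripts, did not pass (0.39 ± 0.24, SE), so the call rests on 1 of 2 probe sets. HAS2, another synthase gene, was lower (-0.80 ± 0.27) although its groups overlapped. HAS2 lost its call in the fit without any treated replicate, any untreated T84 replicate or Caco-2 replicate 2 or 3 (limma adjusted p 0.0636 to 0.143). The hyaluronidase gene HYAL1 was lower (-1.50 ± 0.13) and the hyaluronan receptor gene LAYN (-1.63 ± 0.12).

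Sialyltransferases, which place sialic acid on glycan ends, showed 1 large difference upward and 4 of at least 2-fold downward. Of all 20 measured members, 2 were higher, 7 lower and 11 did not pass (45% called, against 45.6% of all probe sets), with a median of -0.01 against 0.02 over all probe sets. After ribosomal centring 13 were higher and 5 lower.

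ST6GALNAC1 adds sialic acid to the first GalNAc of O-glycans and so makes the sialyl-Tn antigen. Its log2 signals were 9.15, 9.12 and 9.05 in treated T84, 9.59, 9.49 and 9.54 without treatment and 5.15, 5.24 and 5.15 in Caco-2. The Caco-2 arrays were the lowest, the untreated T84 arrays the highest, and no group overlapped another. Treated T84 stood 3.93 ± 0.05 log2 units above Caco-2 (SE; limma adjusted p = 1.6e-10, n = 3 per group) and -0.43 ± 0.05 from untreated T84 (adjusted p = 0.000916). ST6GALNAC2, which acts on the same residue, read 7.84, 7.71 and 7.88 in treated T84, 6.43, 6.72 and 6.55 without treatment and 8.15, 7.76 and 7.71 in Caco-2. The treated and Caco-2 arrays overlapped and the untreated T84 arrays lay below both. Its difference from Caco-2 was -0.06 ± 0.12 (95% interval -0.35 to 0.22; limma adjusted p = 0.71, n = 3 per group). ST6GALNAC5, a ganglioside sialyltransferase gene, was higher by 0.41 ± 0.11.

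The genes lower in treated T84 were led by ST3GAL6, whose product sialylates lactosamine chains. Its signals were 3.82, 3.69 and 3.65 in treated T84, 3.58, 3.45 and 3.75 without treatment and 6.34, 6.89 and 7.08 in Caco-2. ST6GALNAC3, a gene of the same subfamily as ST6GALNAC1, read 4.36, 4.15 and 4.14 in treated T84, 3.95, 4.08 and 4.24 without treatment and 6.53, 7.61 and 7.39 in Caco-2. Every Caco-2 array was above every T84 array for both genes, with differences of -3.05 ± 0.17 and -2.96 ± 0.25 log2 units. ST3GAL1, which caps core 1 O-glycans, was at 6.74 ± 0.04 in treated T84 and 8.16 ± 0.22 in Caco-2 (SD, n = 3; difference -1.42 ± 0.10). ST6GALNAC6, which makes disialyl Lewis a, differed by -1.40 ± 0.17 and ST6GALNAC4, which forms disialylated core 1, by -0.66 ± 0.08. A pair of smaller calls depended on the scale or the array set: ST3GAL2 at -0.38 ± 0.08, with another probe set at -0.11 ± 0.10 that did not pass, and ST3GAL3 at -0.24 ± 0.08 (limma adjusted p = 0.0348, n = 3 per group). Ribosomal centring turned ST3GAL3 to 0.19 and ST3GAL2 to 0.05. ST3GAL3 lost its call in the fit without treated replicate 1 or 2, replicate 2 or 3 of untreated T84 or Caco-2 replicate 1 or 2 (limma adjusted p 0.0511 to 0.118).

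Sialyltransferases that did not pass included 2 genes of high signal. ST6GAL1, the main sialyltransferase of N-glycans, read 10.62, 10.60 and 10.61 in treated T84 and 10.67, 10.46 and 10.25 in Caco-2. ST3GAL4 read 8.08, 8.15 and 8.27 in treated T84 and 8.22, 7.81 and 8.08 in Caco-2. The groups overlapped for both genes, at differences of 0.15 ± 0.09 and 0.13 ± 0.11, and ST6GAL1 passed without Caco-2 replicate 1 (0.25, limma adjusted p = 0.0145). The other 8, the GM3 synthase gene ST3GAL5, ST6GAL2, the GD3 synthase gene ST8SIA1, ST8SIA2, ST8SIA3, ST8SIA4, ST8SIA5 and ST8SIA6, lay between -0.02 and 0.18, and 6 of them had mean signals of 5 or less in Caco-2.

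Among genes of sialic acid supply, GNE, SLC35A1 and CMAS were higher in treated T84 and NANS lower, and the genes of removal and breakdown that passed were lower. Of 12 measured members 3 were higher (background 19.4%), 4 lower (background 26.2%) and 5 did not pass, with a median of 0.00. After ribosomal centring 8 were higher and 3 lower. GNE encodes the enzyme that starts sialic acid synthesis. It read 8.89, 8.65 and 8.49 in treated T84, 9.70, 9.60 and 9.78 without treatment and 7.47, 7.76 and 7.51 in Caco-2. The 3 groups did not overlap, with treated T84 between the others, 1.10 ± 0.11 above Caco-2 (limma adjusted p = 6.22e-05) and -1.02 ± 0.11 from untreated T84 (adjusted p = 0.000757, n = 3 per group). SLC35A1, the Golgi transporter of CMP-sialic acid, was at 10.78 ± 0.22 in treated T84 and 9.37 ± 0.51 in Caco-2 (SD, n = 3; difference 1.41 ± 0.23). CMAS, which makes CMP-sialic acid, differed by 0.56 ± 0.16, with a Caco-2 spread of 0.36 log2 units (SD). CMAS lost its call in the fit without treated replicate 1 or 2 (limma adjusted p 0.0579 to 0.0639).

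On the side of removal, the lysosomal sialidase gene NEU1 read 9.97, 9.91 and 9.88 in treated T84 and 11.52, 11.34 and 11.24 in Caco-2, a difference of -1.45 ± 0.12 without overlap. Its other probe set gave -1.54 ± 0.15. SLC17A5, which exports sialic acid from lysosomes, was lower (-1.10 ± 0.12), and NPL, which cleaves free sialic acid, (-1.08 ± 0.07). NANS, the synthase of sialic acid phosphate, was lower (-0.26 ± 0.09), a difference that became 0.17 after ribosomal centring. NANS lost its call in the fit without any treated replicate, replicate 3 of untreated T84 or any Caco-2 replicate (limma adjusted p 0.0513 to 0.11). CTSA, the protective partner of NEU1, differed by 0.18 ± 0.08, RENBP by 0.12 ± 0.09, NEU2 by -0.03 ± 0.04, NEU3 by 0.04 ± 0.05 and NEU4 by -0.11 ± 0.06, and none of these 5 passed, save CTSA without Caco-2 replicate 1 (0.26, limma adjusted p = 0.0124).

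**Figure D2:**
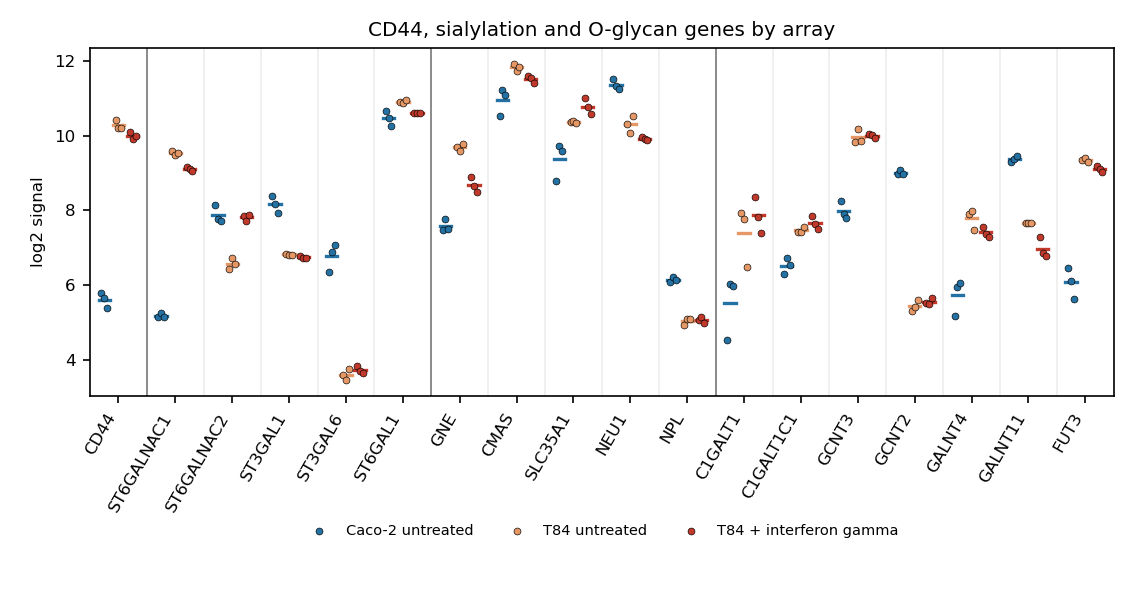
Log2 signal of CD44, of sialyltransferase genes, of sialic acid supply and removal genes and of O-glycan genes is drawn for each of 3 arrays per group, with the group mean as a bar and vertical lines between these sets of genes. CD44 and ST6GALNAC1 lie far above the Caco-2 arrays in all T84 arrays, ST3GAL6 and GCNT2 far below, and ST6GALNAC2 overlaps Caco-2 only after treatment.

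O-glycan initiation and core synthesis genes differed in both directions. Of 18 measured GalNAc transferase genes, which attach the first sugar, 5 were higher, 3 lower and 10 did not pass (15 and 2 after ribosomal centring), with a median of 0.10. This was 44.4% called, near the 45.6% of all probe sets. Single arrays moved these counts: 3 were higher without treated replicate 1 or Caco-2 replicate 2. GALNT4, known for follow-on glycosylation of mucin peptides, read 7.56, 7.36 and 7.29 in treated T84 and 5.18, 5.94 and 6.05 in Caco-2, 1.68 ± 0.23 higher. GALNT5 was higher by 1.23 ± 0.23, GALNT18 by 0.84 ± 0.14 and GALNT12 by 0.39 ± 0.11. Treated T84 cells were lower than untreated ones at GALNT12 (-0.66 ± 0.11, limma adjusted p = 0.00749, n = 3 per group). GALNT12 lost its call in the fit without treated replicate 1 or Caco-2 replicate 2 or 3 (limma adjusted p 0.0713 to 0.0769). GALNT11, a transferase known to act on Notch1 and lipoprotein receptors, read 7.28, 6.85 and 6.79 in treated T84, 7.66, 7.66 and 7.66 without treatment and 9.29, 9.38 and 9.46 in Caco-2, in 3 separate ranges, -2.40 ± 0.12 from Caco-2. GALNT2 was lower (-0.92 ± 0.10). GALNT3 had a large difference that did not pass (1.43 ± 0.69, adjusted p = 0.129 in limma, n = 3 per group): its Caco-2 arrays read 6.66, 9.25 and 9.0, of which replicate 1 was far below the others. GALNT7, named after its values were seen, showed the same Caco-2 pattern (6.34, 8.41 and 8.33; difference 1.36 ± 0.56). Without Caco-2 replicate 1 the differences were 0.61 (limma adjusted p = 0.304) and 0.68 (adjusted p = 0.143).

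Core 1 synthesis needs the enzyme C1GALT1 and its chaperone C1GALT1C1. C1GALT1 read 8.36, 7.83 and 7.40 in treated T84, 7.93, 7.76 and 6.48 without treatment and 4.54, 6.02 and 5.96 in Caco-2, a difference of 2.36 ± 0.51 from Caco-2 (limma adjusted p = 0.00482, n = 3 per group). All treated arrays exceeded all Caco-2 arrays, though the spread within groups was among the wider ones. C1GALT1C1 was higher by 1.14 ± 0.12. GCNT3, a core 2 and core 4 branching enzyme of mucous epithelia, was at 10.00 ± 0.06 in treated T84 and 7.97 ± 0.24 in Caco-2 (SD, n = 3; difference 2.02 ± 0.13). GCNT2, which forms the I branches of lactosamine chains, read 5.52, 5.50 and 5.66 in treated T84, 5.30, 5.40 and 5.60 without treatment and 8.98, 9.07 and 8.96 in Caco-2, a difference of -3.45 ± 0.08 and without overlap. The core 2 gene GCNT1 (-0.61 ± 0.66) and the core 3 gene B3GNT6 (0.10 ± 0.06) did not pass. Of 6 measured list genes (median 0.62) 3 were higher (background 19.4%) and 1 lower (background 26.2%), or 4 and 1 after ribosomal centring. Without Caco-2 replicate 1, GCNT1 passed as well, at -1.35 (limma adjusted p = 0.0488), which made 2 lower.

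Mucins, the main carriers of O-glycans at the gut surface, were more often higher than lower in treated T84. Of 11 measured genes 6 were higher (background 19.4%), 4 of them by at least 2-fold (background 7.47%), 2 were lower (background 26.2%) and 3 did not pass, with a median of 0.56. After ribosomal centring 9 were higher and none lower. The transmembrane mucin gene MUC1 read 10.73, 10.73 and 10.78 in treated T84, 9.49, 9.56 and 9.43 without treatment and 8.43, 8.37 and 8.35 in Caco-2, in 3 separate ranges. Its difference from Caco-2 was 2.37 ± 0.05, and its 2 other probe sets, which by their suffix can cross-hybridise, gave 2.21 and 2.12. MUC13, a mucin of intestinal epithelium, was higher by 2.47 ± 0.07, MUC4 by 1.59 ± 0.08, MUC20 by 1.42 ± 0.18 and MUC16 by 0.70 ± 0.12. MUC15 was lower (-0.63 ± 0.17), and MUC5B (-0.01), MUC6 (0.04) and MUC7 (0.00) did not pass. MUC15 lost its call in the fit without treated replicate 1 or Caco-2 replicate 2 or 3 (limma adjusted p 0.0509 to 0.0553).

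Fucosylation genes, which build Lewis and blood group antigens, had 7 higher (background 19.4%), 2 lower (background 26.2%) and 7 not past the test of 16 measured (12 and 1 after ribosomal centring; median 0.10). These counts moved when single arrays were left out: 4 were lower without Caco-2 replicate 1. FUT3, the Lewis fucosyltransferase, read 9.19, 9.12 and 9.04 in treated T84, 9.35, 9.40 and 9.28 without treatment and 6.46, 6.12 and 5.64 in Caco-2. Its difference of 3.04 ± 0.18 was 3.77 in another probe set that can cross-hybridise. GMDS and GFUS, which make GDP-fucose in successive steps, were higher by 1.19 ± 0.09 and 0.85 ± 0.10, the secretor gene FUT2 by 0.85 ± 0.15 and the H antigen gene FUT1 by 0.68 ± 0.17. POFUT2, which adds O-fucose to thrombospondin repeats, was lower (-0.85 ± 0.15). The core fucosyltransferase gene FUT8 (-0.55 ± 0.25) and FUT4 (-0.27 ± 0.10) did not pass, though FUT8 did without Caco-2 replicate 1 (-0.82, limma adjusted p = 0.00679) and FUT4 without that array (-0.33, adjusted p = 0.0319) or treated replicate 1 (adjusted p = 0.0188).

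Lactosamine extension and glycolipid synthesis genes differed in both directions. Of 17 measured extension genes 3 were higher and 5 lower (background 19.4% and 26.2%; 11 and 3 after ribosomal centring; median 0.06). The counts here depended on single arrays: 6 were higher without Caco-2 replicate 1, and 3 were lower without treated replicate 2 or 3 or Caco-2 replicate 2. B3GALT5, which makes type 1 chains, was higher by 0.78 ± 0.10 and B3GNT3, which extends core 1, by 0.76 ± 0.14. B4GAT1, a glucuronosyltransferase of dystroglycan, read 8.36, 8.48 and 8.55 in treated T84, 9.09, 8.86 and 9.25 without treatment and 10.67, 10.28 and 10.40 in Caco-2, -1.99 ± 0.13 from Caco-2. B4GALNT4, which makes LacdiNAc, was lower (-0.94 ± 0.11) and B3GNT9 (-0.66 ± 0.08). Of 14 measured glycosphingolipid genes 1 was higher and 4 lower (background 19.4% and 26.2%; 9 and 3 after ribosomal centring; median -0.03). The higher gene was B3GALT4, which makes the GM1 family (0.40 ± 0.11). B3GALT4 lost its call in the fit without treated replicate 3 or Caco-2 replicate 2 or 3 (limma adjusted p 0.0529 to 0.0615). GAL3ST1, the sulfatide synthase, was lower (-1.02 ± 0.15), the globoside synthase gene B3GALNT1 (-0.92 ± 0.15) and the Forssman synthase gene GBGT1 (-0.67 ± 0.08). B3GNT5, which starts lacto-series glycolipids, stood 1.39 ± 0.71 apart and did not pass, with Caco-2 arrays at 6.41, 8.93 and 8.61. Without Caco-2 replicate 1 its difference was 0.60 (limma adjusted p = 0.389).

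N-glycan genes that passed were mostly lower in treated T84 on the deposited scale, a balance that ribosomal centring removed. Of 20 measured genes that build and transfer the precursor, 2 were higher (background 19.4%), 11 lower (background 26.2%) and 7 did not pass, with a median of -0.32, and ribosomal centring gave 7 higher and 7 lower. ALG8, which adds the second glucose of the precursor, read 10.55, 10.54 and 10.51 in treated T84 and 12.19, 12.01 and 12.00 in Caco-2, a difference of -1.53 ± 0.07 without overlap. The mannosyltransferase gene ALG9 was lower (-1.22 ± 0.13), the oligosaccharyltransferase subunit gene RPN2 (-0.90 ± 0.05) and DPAGT1, which starts the precursor, (-0.84 ± 0.09). ALG13, a subunit of the enzyme that adds the second GlcNAc, was higher by 1.89 ± 0.42 and ALG10, which adds the last glucose, by 1.07 ± 0.09. The oligosaccharyltransferase subunit genes DAD1 (-0.11 ± 0.10) and RPN1 (-0.17 ± 0.09) did not pass.

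Trimming and branching genes of N-glycans had 7 lower and none higher of 14 measured (background 26.2% and 19.4%; median -0.20; 7 higher and 2 lower after ribosomal centring). Counts in this list rested partly on single arrays: 1 was higher without treated replicate 3, untreated T84 replicate 3 or Caco-2 replicate 1, and 4 were lower without treated replicate 2 or 3 or Caco-2 replicate 2. MAN1A1, a Golgi mannosidase, was the largest of them. It read 5.69, 5.66 and 5.55 in treated T84, 5.30, 5.30 and 5.39 without treatment and 7.42, 8.79 and 8.56 in Caco-2, -2.63 ± 0.30 from Caco-2 and lower on every T84 array. MGAT4A, a branching enzyme, was lower (-1.22 ± 0.39) with overlapping groups, MGAT3, which adds the bisecting GlcNAc, (-0.97 ± 0.11) and MAN2A1 (-0.64 ± 0.15). MGAT1 (-0.39 ± 0.09) and MGAT2 (-0.36 ± 0.10), which open the path to complex N-glycans, were lower on the deposited scale and at 0.04 and 0.07 after ribosomal centring. MGAT2 lost its call in the fit without treated replicate 2 or 3 or Caco-2 replicate 2 or 3 (limma adjusted p 0.057 to 0.0705). MGAT4A lost its call in the fit without treated replicate 2 or 3 or Caco-2 replicate 2 or 3 (limma adjusted p 0.082 to 0.102).

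The interferon gamma response list was mostly higher in treated T84 than in Caco-2. Of its 19 measured genes 15 were higher (background 19.4%), 13 of them by at least 2-fold (background 7.47%), 1 was lower and 3 did not pass, with a median of 2.54 against 0.02 over all probe sets. After ribosomal centring 18 were higher and 1 lower. The list was written for genes that this cytokine induces, and earlier results of these data were known. The comparison of treated with untreated T84, in which 10.2% of all probe sets passed, holds the line constant, and 43.7% passed between untreated T84 and Caco-2, where neither was treated.

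CXCL10 read 13.04, 12.89 and 12.83 in treated T84, 7.92, 7.59 and 7.92 without treatment and 5.40, 5.33 and 5.35 in Caco-2. All 3 treated arrays were the highest and the Caco-2 arrays the lowest, without overlap. Its difference from Caco-2 was 7.56 ± 0.10 log2 units (SE), or 189-fold (95% interval 162 to 221; limma adjusted p = 1.6e-10, n = 3 per group). CXCL9 read 12.36, 12.01 and 11.39 in treated T84, 5.91, 5.66 and 5.80 without treatment and 5.73, 5.71 and 5.77 in Caco-2. Untreated T84 and Caco-2 did not differ past the threshold here (adjusted p = 0.847, limma, n = 3 per group), and the treated arrays stood 6.18 ± 0.21 log2 units above Caco-2. CXCL11 read 10.71, 10.15 and 10.06 in treated T84, 6.85, 6.28 and 5.68 without treatment and 4.64, 4.21 and 4.37 in Caco-2, with a difference of 5.90 ± 0.29. These 3 genes encode the ligands of CXCR3, a receptor of activated T cells, and their promoters are printed above. TNFSF13B, the gene of the B cell factor BAFF, had the same order, at 9.22 ± 0.44, 5.80 ± 0.31 and 5.26 ± 0.11 (SD, n = 3), a difference of 3.96 ± 0.23 from Caco-2.

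ICAM1, a leukocyte adhesion molecule, and CD74, the chaperone of MHC class II, stood in another order. ICAM1 read 10.94, 10.87 and 10.72 in treated T84, 7.58, 7.58 and 7.87 without treatment and 8.62, 8.25 and 8.02 in Caco-2. CD74 read 10.87, 10.74 and 10.79 in treated T84, 7.21, 7.19 and 7.37 without treatment and 8.61, 8.57 and 8.39 in Caco-2. For both, untreated T84 was the lowest group, at -0.62 ± 0.15 from Caco-2 for ICAM1 (limma adjusted p = 0.00955) and -1.27 ± 0.08 for CD74 (adjusted p = 2.65e-06). Treated T84 was the highest group, 2.54 ± 0.15 and 2.28 ± 0.08 log2 units above Caco-2 (SE, n = 3 per group). Both genes were named after their values were seen.

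Other members also stood above Caco-2 in untreated T84, as CXCL10 and CXCL11 did. Treated signal was close to untreated signal for IFITM1 and LGALS3BP and well above it for CX3CL1. IFITM1, an interferon-induced membrane protein, read 14.29, 14.28 and 14.32 in treated T84, 14.17, 14.12 and 14.21 without treatment and 10.71, 10.34 and 10.28 in Caco-2, a difference of 3.85 ± 0.10 from Caco-2 and 0.13 ± 0.10 from untreated T84 (adjusted p = 0.615 in limma, n = 3 per group). LGALS3BP, the galectin 3 binding protein, was 3.32 ± 0.09 above Caco-2 and 0.11 ± 0.09 from untreated T84. LAMP3, a lysosomal membrane glycoprotein, was at 11.95 ± 0.10 in treated T84, 10.78 ± 0.22 without treatment and 7.28 ± 0.07 in Caco-2 (SD, n = 3), and the chemokine gene CCL5 at 9.90 ± 0.07, 8.55 ± 0.14 and 5.89 ± 0.19. CX3CL1, a membrane-bound chemokine, was at 10.54 ± 0.07, 8.17 ± 0.05 and 6.89 ± 0.27, and LGALS9, a galectin, at 10.33 ± 0.07, 9.89 ± 0.09 and 7.84 ± 0.06. Each of these 4 passed the threshold between untreated T84 and Caco-2, and also between treated and untreated T84.

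The interferon gamma receptor genes were higher in treated T84 than in Caco-2. IFNGR1 read 11.25, 10.74 and 10.55 in treated T84 and 9.14, 10.14 and 10.06 in Caco-2, a difference of 1.07 ± 0.28, and IFNGR2 differed by 0.42 ± 0.06. CCL2, a monocyte chemokine, was the gene lower in treated T84 (-0.70 ± 0.05), while the chemokine genes CCL7 (0.01 ± 0.04) and CCL8 (0.09 ± 0.05) and the adhesion molecule gene VCAM1 (-0.04 ± 0.05) did not pass, save CCL8 without treated replicate 3 (0.14, limma adjusted p = 0.0452).

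**Figure D3:**
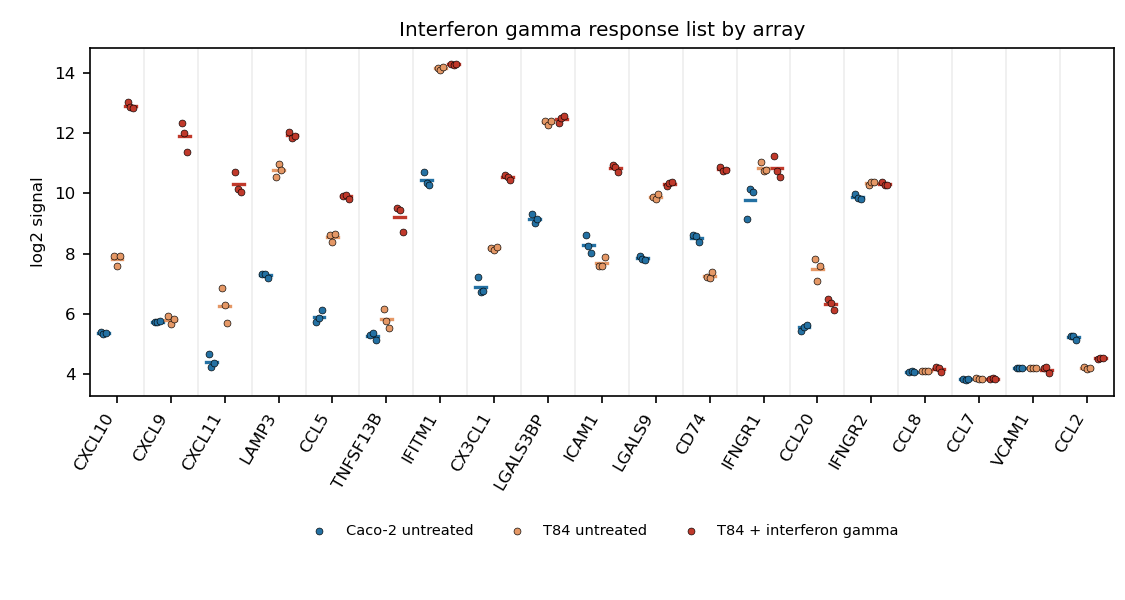
Log2 signal of the 19 measured genes of the interferon gamma response list is drawn for each of 3 arrays per group, with group means as bars and genes ordered by the difference of treated T84 from Caco-2. CXCL9 lies at the Caco-2 signal in untreated T84 and far above it after treatment, ICAM1 and CD74 lie below Caco-2 without treatment, and IFITM1 and LGALS3BP are high in T84 with and without it.

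Chemokines, interleukins and their receptors had more calls upward than downward. Of 54 measured chemokine and chemokine receptor genes, some of them members of the interferon list, 18 were higher and 7 lower (48 and 4 after ribosomal centring; median 0.09), 46.3% called against a background of 45.6%, of which 19.4% higher and 26.2% lower. CCL3, an inflammatory chemokine, was higher by 2.66 ± 0.10. The chemokines of the homeostatic kind CXCL12 (-1.09 ± 0.09) and CXCL14 (-2.26 ± 0.14), named after their values were seen, were lower in treated T84. The 2 other probe sets of CXCL12 gave -0.99 and -4.29, all 3 lower but unequal in size. Of 33 measured interleukin, tumour necrosis factor family and receptor genes 14 were higher and none lower (background 19.4% and 26.2%; 33 and none after ribosomal centring; median 0.14). IL2RG, the shared gamma chain of several interleukin receptors, read 10.92, 10.72 and 10.87 in treated T84, 9.75, 10.04 and 9.83 without treatment and 7.69, 7.84 and 7.69 in Caco-2, 3.10 ± 0.09 above Caco-2. The interferon receptor gene IFNAR1 was higher by 1.34 ± 0.28 and IL4R by 1.22 ± 0.07. IFNAR2 was higher by 0.99 ± 0.09, while its other probe set did not pass (0.09 ± 0.14). IL12RB1 did not pass at its brighter probe set (-0.01 ± 0.06), and its other probe set was higher by 1.16 ± 0.10.

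Heparan sulfate chains are polymerised on proteoglycans and then sulfated, which sets their binding of growth factors. Of 30 measured genes 6 were higher (background 19.4%) and 7 lower (background 26.2%), or 22 and 5 after ribosomal centring. The share called, 43.3%, was near the 45.6% of all probe sets, and the median was -0.03. The polymerase gene EXT1 read 10.08, 10.02 and 9.90 in treated T84 and 8.69, 8.50 and 8.42 in Caco-2, 1.46 ± 0.09 higher. HPSE, which cleaves the chains, was at 7.80 ± 0.10 in treated T84, 7.09 ± 0.08 without treatment and 6.17 ± 0.26 in Caco-2 (SD, n = 3), in 3 separate ranges and 1.63 ± 0.12 above Caco-2. HS3ST1, a 3-O-sulfotransferase, was higher by 1.22 ± 0.11. The 2-O-sulfotransferase gene HS2ST1 read 5.65, 5.36 and 5.09 in treated T84 and 5.95, 7.72 and 7.47 in Caco-2, a difference of -1.68 ± 0.43. EXTL2 was lower (-1.25 ± 0.43) with overlapping groups, and SULF2, which removes 6-O-sulfate outside the cell, (-1.23 ± 0.11). EXTL2 lost its call in the fit without any treated replicate, any untreated T84 replicate or Caco-2 replicate 2 or 3 (limma adjusted p 0.0582 to 0.144). HS6ST2 differed by 0.86 ± 0.50 and did not pass.

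Chondroitin sulfate genes were divided between large differences in both directions. Of 15 measured members (median -0.17) 2 were higher (background 19.4%) and 7 lower (background 26.2%), or 8 and 3 after ribosomal centring. Single arrays moved these counts: 4 were higher and 4 lower without treated replicate 3. CHST7, a chondroitin 6-O-sulfotransferase, read 9.72, 9.64 and 9.51 in treated T84, 9.39, 9.46 and 9.50 without treatment and 6.80, 6.46 and 6.37 in Caco-2. CHST3, the other chondroitin 6-O-sulfotransferase, read 6.19, 6.38 and 6.48 in treated T84, 6.02, 6.24 and 6.40 without treatment and 9.56, 9.35 and 9.04 in Caco-2. The 2 genes were separated between the lines in opposite directions, 3.08 ± 0.11 and -2.97 ± 0.15 log2 units. CHST13, a 4-O-sulfotransferase, was lower (-2.77 ± 0.20), and CHST15 and CHST14 (-0.75 ± 0.14 and -0.68 ± 0.14). The chondroitin synthase gene CHSY1 was higher by 1.19 ± 0.11.

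Other sulfation genes had 2 higher (background 19.4%) and 7 lower (background 26.2%) of 20 measured, or 13 and 4 after ribosomal centring. Their median was -0.02, and 45% were called against 45.6% of all probe sets. The tyrosine sulfotransferase genes TPST2 and TPST1 were lower (-1.99 ± 0.15 and -0.85 ± 0.07). PAPSS1 and PAPSS2 both make PAPS, the sulfate donor. PAPSS1 was lower (-1.17 ± 0.06). PAPSS2 was higher by 0.70 ± 0.12, and read 8.93, 8.80 and 8.80 in treated T84, 9.90, 9.90 and 9.86 without treatment and 7.84, 8.31 and 8.28 in Caco-2, in 3 separate ranges with treated T84 between the others.

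Proteoglycan core proteins, which carry these chains, included GPC4, GPC3 and FMOD among the 20 largest differences in their direction. By at least 2-fold, 6 of 22 measured genes were lower and 1 higher (background 9.61% and 7.47%). Of all 22 (median -0.07), 1 was higher (background 19.4%) and 10 lower (background 26.2%), or 12 and 8 after ribosomal centring. These counts moved when single arrays were left out: 2 were higher without Caco-2 replicate 1. The glypicans GPC4 and GPC3 were opposite. GPC4 read 8.67, 8.64 and 8.67 in treated T84, 8.48, 8.48 and 8.61 without treatment and 4.73, 5.01 and 4.61 in Caco-2, 3.88 ± 0.10 higher. GPC3, a glypican of fetal tissue and liver tumours, read 6.95, 6.94 and 6.92 in treated T84, 6.90, 6.81 and 7.07 without treatment and 11.98, 11.94 and 11.75 in Caco-2, a difference of -4.96 ± 0.08. Treated and untreated T84 arrays overlapped for GPC3 and stood 0.14 ± 0.10 apart for GPC4 (limma adjusted p = 0.56, n = 3 per group). FMOD, a collagen-binding proteoglycan, was lower (-3.26 ± 0.14), the TGF beta co-receptor gene TGFBR3 (-2.56 ± 0.36), GPC5 (-2.30 ± 0.30) and GPC1 (-1.36 ± 0.12). The syndecan gene SDC1 (0.15 ± 0.11) and AGRN (-0.03 ± 0.10) did not pass, though SDC1 did without Caco-2 replicate 1 (0.28, limma adjusted p = 0.0225).

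Lysosomal glycosidases and related genes, which degrade glycans, had 6 higher (background 19.4%) and 13 lower (background 26.2%) of 26 measured. The median was -0.14, and ribosomal centring gave 14 higher and 10 lower. The iduronate sulfatase gene IDS was higher by 1.74 ± 0.07, and by 1.34 ± 0.31 in its other probe set, which can cross-hybridise. GM2A, the activator protein of ganglioside breakdown, read 9.32, 9.27 and 9.32 in treated T84, 9.94, 9.62 and 10.27 without treatment and 11.37, 11.08 and 10.95 in Caco-2, in 3 separate ranges and -1.83 ± 0.16 from Caco-2. GALNS, a sulfatase of keratan and chondroitin sulfate, was lower (-1.53 ± 0.13). ARSB was lower (-1.48 ± 0.12), while its other probe sets gave -0.71 (in 1 that can cross-hybridise) and, without passing, -0.15. LAMP3, described above, led the list upward.

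Nucleotide sugar supply (median -0.15) held 5 higher (background 19.4%) and 11 lower (background 26.2%) of 32 measured, or 15 and 5 after ribosomal centring. The counts here depended on single arrays: 8 were higher without Caco-2 replicate 1. GFPT1, the first enzyme of the hexosamine pathway that feeds UDP-GlcNAc, was higher by 0.96 ± 0.10. SLC35D3, an orphan member of the sugar transporter family, read 6.35, 6.29 and 6.09 in treated T84, 7.23, 7.46 and 7.39 without treatment and 5.34, 5.25 and 5.14 in Caco-2, in 3 separate ranges. The transporter genes SLC35B4 and SLC35D2 were lower (-1.96 ± 0.08 and -1.08 ± 0.06), the galactokinase gene GALK1 (-1.03 ± 0.12) and PGM1 (-0.95 ± 0.08). SLC35A3, the UDP-GlcNAc transporter gene, differed by 1.30 ± 0.55 and did not pass, with Caco-2 arrays at 4.56, 6.17 and 6.02. HK1, a hexokinase gene, read 9.88, 9.96 and 9.99 in treated T84, 8.85, 8.80 and 8.84 without treatment and 10.11, 9.75 and 9.70 in Caco-2: treated T84 and Caco-2 overlapped (0.09 ± 0.10) and untreated T84 lay below both. HK1 passed without Caco-2 replicate 1 (0.22, limma adjusted p = 0.00651) and SLC35A3 without untreated T84 replicate 3 (1.30, adjusted p = 0.048). SLC35A3 and HK1 were named after their values were seen.

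Among smaller lists, 5 of 7 measured GPI anchor genes were higher and none lower (background 19.4% and 26.2%; all 7 higher after ribosomal centring; median 0.38). PIGB, a mannosyltransferase, was higher by 1.13 ± 0.12 and PIGA, a subunit of the first enzyme, by 0.76 ± 0.25, and PIGC, PIGM and PIGQ by 0.46, 0.38 and 0.26. Counts in this list rested partly on single arrays: 3 were higher without treated replicate 1 or 3. PIGA lost its call in the fit without any treated replicate or any untreated T84 replicate (limma adjusted p 0.0508 to 0.12). PIGQ lost its call in the fit without treated replicate 1 or 3 or Caco-2 replicate 2 or 3 (limma adjusted p 0.0712 to 0.0762). Of 6 measured UDP-glucuronosyltransferase genes 1 was higher (background 19.4%) and 1 lower (background 26.2%), or 6 higher after ribosomal centring. Single arrays moved these counts: none were lower without treated replicate 1 or 3. UGT1A1, which conjugates bilirubin, read 9.64, 9.59 and 9.40 in treated T84, 10.64, 10.73 and 10.58 without treatment and 5.86, 5.99 and 5.89 in Caco-2, 3.63 ± 0.08 above Caco-2 and -1.11 ± 0.08 from untreated T84. Its probe set matches several transcripts and may read other members of its locus.

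The insulin-like growth factor axis held the largest difference downward. IGF2, a fetal growth factor, read 7.21, 7.30 and 7.47 in treated T84, 7.15, 7.12 and 7.15 without treatment and 13.81, 13.72 and 13.77 in Caco-2. Both T84 groups lay far below every Caco-2 array, and treated T84 differed from it by -6.44 ± 0.07 log2 units (limma adjusted p = 7.19e-11, n = 3 per group). IGFBP3 read 6.87, 6.72 and 6.59 in treated T84, 6.41, 6.49 and 6.45 without treatment and 10.14, 10.09 and 9.79 in Caco-2, a difference of -3.28 ± 0.10. IGFBP3 and IGFBP2 (-2.44 ± 0.15) encode binding proteins of these growth factors. IGFBP1, another binding protein gene, was higher than Caco-2 (1.26 ± 0.18) and lower than untreated T84 (-1.03 ± 0.18, limma adjusted p = 0.00858). The receptor gene IGF1R was lower (-0.81 ± 0.12) than Caco-2, from which untreated T84 did not differ past the threshold (0.06 ± 0.12, adjusted p = 0.711; n = 3 per group, limma). IGF2R, which clears IGF2, was higher by 0.43 ± 0.13. IGF2R lost its call in the fit without treated replicate 1 or 2 or Caco-2 replicate 2 or 3 (limma adjusted p 0.0631 to 0.0944). Of 8 measured genes 2 were higher (background 19.4%) and 4 lower (background 26.2%), with a median of -0.42. After ribosomal centring 4 were higher and 4 lower.

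Fibroblast growth factor receptors were lower in treated T84, and most of the ligands did not pass. Of 26 measured family genes 3 were higher and 5 lower (21 and 4 after ribosomal centring; median 0.03), 30.8% called against 45.6% of all probe sets. These counts moved when single arrays were left out: 1 was higher without Caco-2 replicate 2. FGFR2, a receptor of epithelial cells, read 5.48, 5.34 and 5.39 in treated T84, 5.60, 5.57 and 5.48 without treatment and 10.36, 10.53 and 10.45 in Caco-2, a difference of -5.04 ± 0.06. FGFR3 read 7.81, 7.65 and 7.62 in treated T84, 8.80, 9.0 and 9.0 without treatment and 11.24, 10.99 and 10.82 in Caco-2, in 3 separate ranges, -3.32 ± 0.11 from Caco-2 and -1.24 ± 0.11 from untreated T84. FGFR4, the receptor of FGF19, was lower (-1.08 ± 0.10), FGF19 (-1.03 ± 0.11) and FGFR1 (-0.63 ± 0.08). FGF13, an intracellular member of the family, was higher by 2.74 ± 0.08.

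Wnt and frizzled genes had 3 higher and 12 lower of 29 measured (19 and 6 after ribosomal centring; median -0.11), 1 and 6 by at least 2-fold. The background was 19.4% and 26.2%, and 7.47% and 9.61% by at least 2-fold. The counts here depended on single arrays: 6 were higher without Caco-2 replicate 1. Frizzled receptor genes were among the lower ones. FZD4 read 6.65, 6.60 and 6.65 in treated T84, 6.21, 6.13 and 6.36 without treatment and 9.23, 9.21 and 9.13 in Caco-2, -2.55 ± 0.06 from Caco-2, and FZD10 and FZD7 were lower (-2.12 ± 0.13 and -1.63 ± 0.11). The ligand genes WNT11 and WNT6 were lower (-2.15 ± 0.14 and -1.75 ± 0.17), and WNT10A was higher by 2.02 ± 0.11. The receptor gene FZD6 differed by 0.71 ± 0.39 and did not pass.

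Of 39 measured genes of the TGF beta, BMP and Hedgehog families, 6 were higher (background 19.4%) and 12 lower (background 26.2%). With 46.2% called against 45.6% of all probe sets, the median was -0.01, and ribosomal centring gave 25 higher and 6 lower. BMP7 read 7.36, 7.48 and 7.28 in treated T84, 8.06, 8.06 and 8.05 without treatment and 10.96, 10.62 and 10.63 in Caco-2, in 3 separate ranges with treated T84 farthest from Caco-2 (-3.36 ± 0.10). SMO, the Hedgehog signal transducer, was lower (-1.75 ± 0.17), the Hedgehog ligand of gut epithelium IHH (-1.30 ± 0.16) and BMP8A (-1.29 ± 0.20). GDF15, a stress-induced cytokine, read 12.60, 12.73 and 12.85 in treated T84, 12.62, 12.92 and 12.60 without treatment and 9.36, 9.06 and 9.01 in Caco-2, 3.58 ± 0.12 higher. Treated and untreated T84 overlapped for GDF15 and differed for IHH (-1.06 ± 0.16).

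Notch genes and the enzymes that glycosylate Notch had 5 higher (background 19.4%) and 4 lower (background 26.2%) of 13 measured. The median was 0.04, and ribosomal centring gave 9 higher and 2 lower. NOTCH3 was lower (-2.25 ± 0.14) and NOTCH1 higher by 0.50 ± 0.08. Among ligands, JAG1 was higher by 0.58 ± 0.08, and DLL1 and DLL3 were lower (-1.71 ± 0.18 and -0.57 ± 0.10). LFNG, which extends O-fucose on Notch, was higher by 1.10 ± 0.15 in 1 probe set and did not pass in the other (0.23 ± 0.14).

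Other growth factors had 4 higher (background 19.4%) and 6 lower (background 26.2%) of 24 measured. The median was 0.04, and ribosomal centring gave 16 higher and 4 lower. PDGFC, a platelet-derived growth factor, read 4.52, 4.61 and 4.37 in treated T84, 4.66, 4.95 and 4.86 without treatment and 9.28, 9.64 and 9.47 in Caco-2, a difference of -4.96 ± 0.11. PTN, which binds heparin and proteoglycans, read 3.99, 3.86 and 3.77 in treated T84, 3.79, 3.90 and 3.76 without treatment and 7.95, 9.16 and 8.84 in Caco-2, a difference of -4.78 ± 0.26, and -4.05 in another probe set without the cross-hybridisation suffix. The receptor gene PDGFRA was lower (-1.59 ± 0.24). Higher were AREG, a ligand of the EGF receptor (1.97 ± 0.19), the hepatocyte growth factor receptor gene MET (1.35 ± 0.22) and VEGFA (1.01 ± 0.13). MST1R, a receptor of the MET family that no list here held, was higher by 3.03 ± 0.13.

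**Figure D4:**
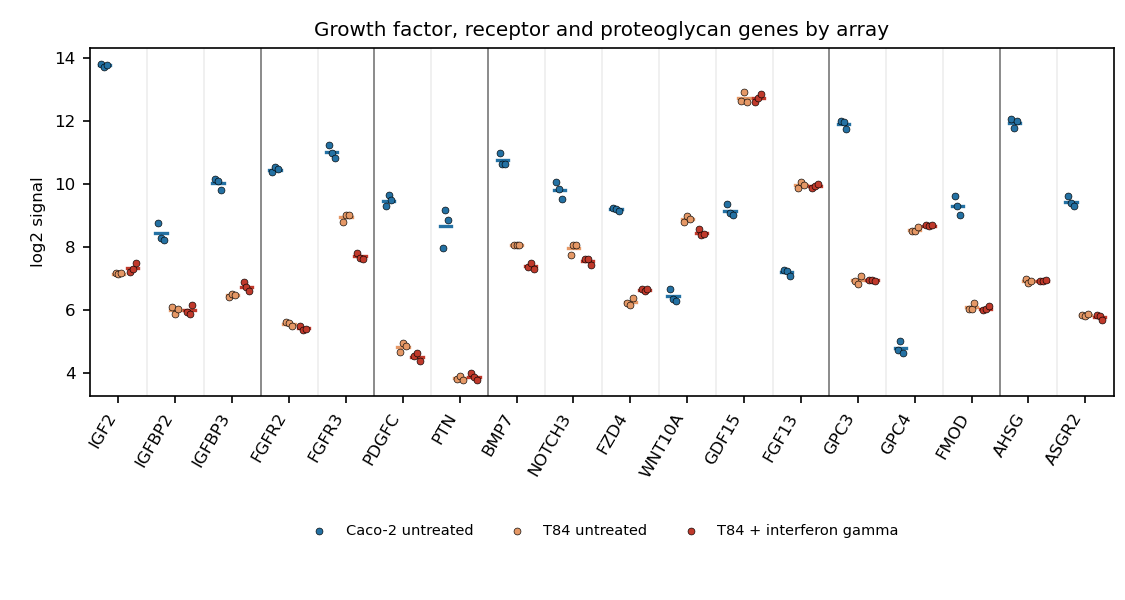
Log2 signal of growth factor, receptor, proteoglycan and liver-type genes is drawn for each of 3 arrays per group, with group means as bars and vertical lines between families. IGF2, FGFR2, PDGFC, PTN, GPC3 and AHSG lie far lower on all T84 arrays than on the Caco-2 arrays, while FGFR3 and BMP7 also differ between treated and untreated T84.

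Liver-type glycoprotein genes, of which only 4 of 27 listed were measured, were all lower in treated T84 (background 26.2%), also after ribosomal centring. AHSG, the plasma glycoprotein fetuin A, read 6.91, 6.91 and 6.93 in treated T84, 6.98, 6.85 and 6.91 without treatment and 12.05, 11.75 and 11.99 in Caco-2, a difference of -5.01 ± 0.08. The asialoglycoprotein receptor, a liver lectin that takes up glycoproteins lacking sialic acid, has 2 subunits. Its ASGR2 subunit gene read 5.84, 5.81 and 5.65 in treated T84, 5.82, 5.78 and 5.87 without treatment and 9.60, 9.38 and 9.30 in Caco-2, a difference of -3.66 ± 0.08, and ASGR1 was lower (-1.44 ± 0.09). GPC3, described above, was the fourth.

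Galectins, which bind galactose-ended glycans, held large differences in both directions. Of 13 measured genes 4 were higher (background 19.4%) and 5 lower (background 26.2%), with a median of 0.05. After ribosomal centring 8 were higher and 3 lower. LGALS4, an intestinal galectin, read 12.45, 12.46 and 12.50 in treated T84, 12.99, 13.04 and 12.98 without treatment and 6.95, 6.96 and 6.82 in Caco-2. LGALS2, another galectin of the gut, read 5.14, 5.02 and 5.10 in treated T84, 5.23, 5.11 and 5.22 without treatment and 10.98, 10.83 and 10.64 in Caco-2. The lines were separated at both genes, in opposite directions, by 5.56 ± 0.05 and -5.73 ± 0.09 log2 units. LGALS14 and LGALS1 were lower (-1.85 ± 0.08 and -0.77 ± 0.18).

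C-type and I-type lectins had 4 higher and 8 lower of 46 measured, a share of 26.1% called against 45.6% of all probe sets (38 and 5 after ribosomal centring; median 0.03). Counts in this list rested partly on single arrays: 7 were higher without Caco-2 replicate 1, 2 were higher without treated replicate 2, untreated T84 replicate 1 or 2 or Caco-2 replicate 2, and 1 was higher without treated replicate 1 or Caco-2 replicate 3. SIGLEC6, a sialic acid binding lectin, read 5.71, 5.71 and 5.82 in treated T84, 5.59, 5.60 and 5.76 without treatment and 8.85, 8.53 and 8.34 in Caco-2, a difference of -2.83 ± 0.12. The scavenger collectin gene COLEC12 was lower (-1.98 ± 0.23) and the regenerating gene REG1A (-1.09 ± 0.12). The other genes named among the largest differences were the steroid sulfatase gene STS, lower (-3.04 ± 0.35), and the adhesion molecule gene ICAM2, higher by 2.90 ± 0.12.

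Ribosomal protein genes, on which the scale check rests, were mostly lower in treated T84 on the deposited scale. Of 42 measured, 29 were lower (background 26.2%) and 2 higher (background 19.4%), with a median of -0.26. Single arrays moved these counts: 4 were higher without Caco-2 replicate 1. The differences were unequal. RPL28 read 7.79, 7.78 and 7.71 in treated T84, 8.03, 8.09 and 8.09 without treatment and 10.61, 10.23 and 10.12 in Caco-2, a difference of -2.56 ± 0.11, and RPL34, RPL32 and RPL27A were lower (-2.07 ± 0.09, -1.88 ± 0.15 and -1.69 ± 0.09). RPL41, the brightest member that did not pass, differed by 0.03 ± 0.04. Relative to their own mean, 21 of the 42 were higher and 9 lower. Genes of this family have near-identical copies, so single members are uncertain.

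**Figure D5:**
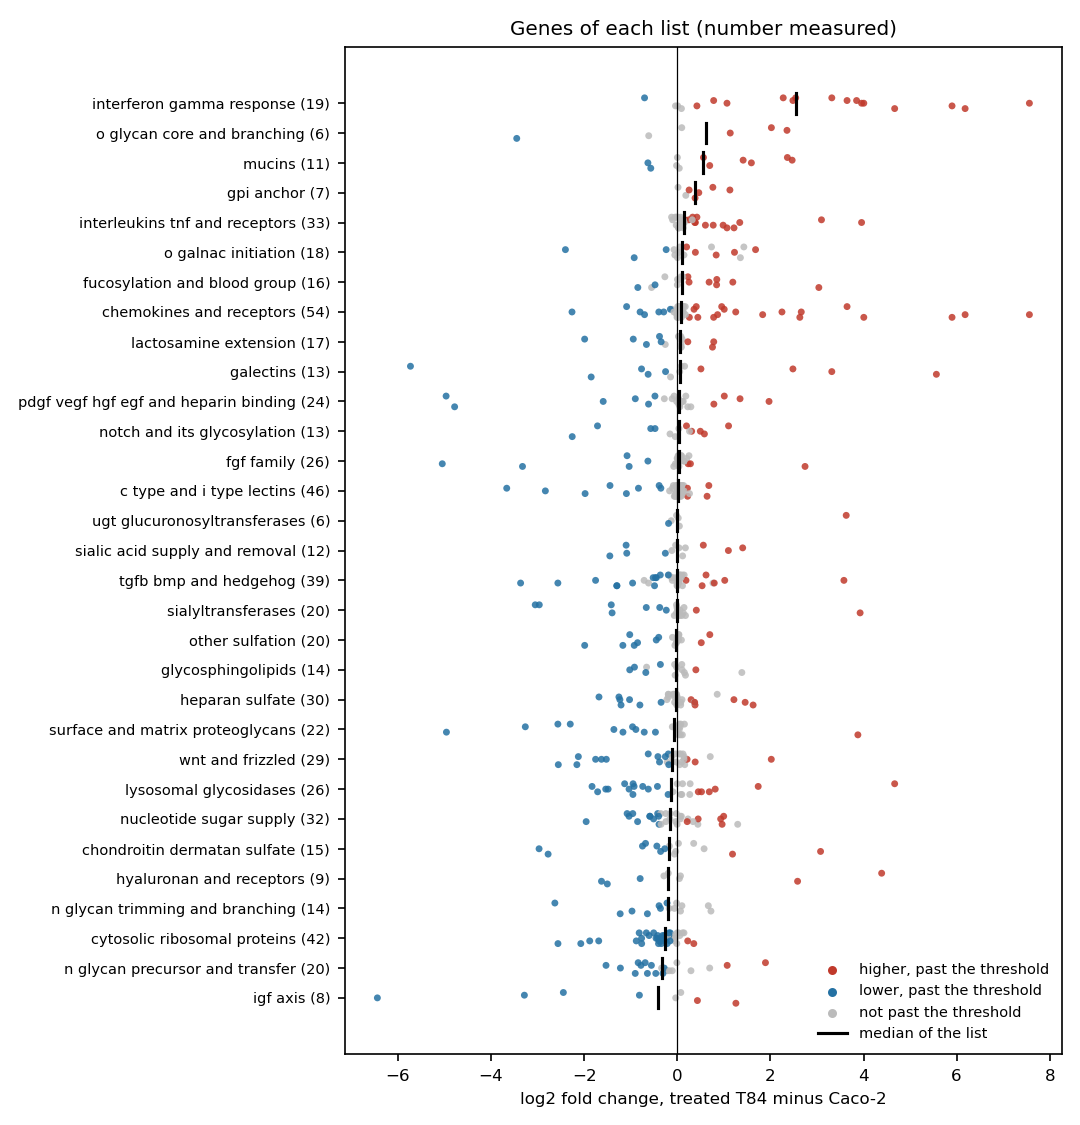
Each point is a gene, placed by its log2 difference of treated T84 from Caco-2 on the deposited scale, for 31 of the 35 lists (3 marker lists and a short liver-type list are not drawn), ordered by their median (bar). The interferon gamma response list lies farthest to the right at a median of 2.54, the other medians lie between -0.42 and 0.62, and centring on ribosomal protein genes would move every point to the right by 0.43, so medians left of 0 by less than that change sign.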

How the data were processed

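The series holds 9 single-channel expression arrays of 3 groups of 3, grouped by their titles. The authors deposited log2 signals per probe set, 1259 in all, made by RMA per the submitters' processing notes. The sources used here name no version, background settings or genome build, and no array was rescaled for the main results. Identifiers were RefSeq (1069), UCSC (189) and 1 other. Through a RefSeq table of GRCh38.p14, 1043 matched a symbol, giving 927 genes, and the other 216 are not named. For the 93 genes with several probe sets, the brightest on average was used.

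Differences were fitted with limma 3.58.1 in R 4.3.3 on all 9 arrays, which share 1 estimate of spread (6 residual degrees of freedom, 2.12 added by moderation), with 3 contrasts, no covariate and Benjamini-Hochberg adjustment over 1259 probe sets within each contrast. The threshold was an adjusted p below 0.05. Tables and plots used Python 3.11.15, pandas 2.3.3 and matplotlib 3.10.9. In simulated data with 200 of 1259 probe sets changed, the test recovered 51.4% at 0.25, 84.8% at 0.5, 95.5% at 1 and 98.9% at 2 log2 units, and 3.7% of calls fell on probe sets simulated without a change. The simulated noise was independent between arrays and between probe sets. In the data 45.6% were called, and deviations of Caco-2 replicate 1 and untreated T84 replicate 3 correlated at 0.756. These rates therefore describe the simulation and may not hold for the data.

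The samples, the 35 gene lists and the rules were chosen with earlier results of these data known. Named genes were the 20 largest differences in each direction among genes past the threshold whose groups did not overlap; CD44 and all measured sialyltransferase and sialic acid genes; and, in each other list, up to 6 members past the threshold by size and up to 3 not past it by highest mean. Outside that rule, ICAM1, CD74, GALNT7, SLC35A3, HK1, CXCL12 and CXCL14 were named after their values were seen. CCL2 and IFNGR2 were also named outside it. A result that the rule would name is not reported here. Same-numbered arrays of different groups had deviations that correlated between -0.643 and 0.561, which does not settle whether the numbers pair samples. Caco-2 replicate 1 and untreated T84 replicate 3, of different number, correlated at 0.756. Deviations shared between groups in this way are not modelled by the main fit. Alternatives covered the arrays fitted, moderation, array weights, scaling, dim or shared probe sets, the threshold and leaving out each array. Leaving out 3 arrays together and centring on the ribosomal median were added after seeing the data.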

Additional observations from a re-analysis of the deposited data

How the results depend on the processing

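Counts of probe sets higher and lower in treated T84 than Caco-2, 244 and 330, ran from 211 to 297 and from 294 to 343 when each of the 9 arrays was left out, the highest without Caco-2 replicate 1. With the replicate number as a replicate block they were 225 and 309, though it is not known whether the numbers pair the samples. They stayed within 1.5 times under every alternative except array weights (368 higher) and the centring on ribosomal protein genes, on their mean (903 higher, 182 lower) or, added after seeing the data, on their median (736 higher). The cause was not tested. Centring on the mean turned the sign for AGRN (0.40), DAD1 (0.32), IL12RB1 (0.42), MGAT1 (0.038), MGAT2 (0.067), MUC5B (0.41), NANS (0.17), NEU2 (0.39), NEU4 (0.31), RPN1 (0.26), ST3GAL2 (0.052), ST3GAL3 (0.19), ST6GALNAC2 (0.36), ST8SIA2 (0.41), ST8SIA3 (0.42), ST8SIA5 (0.41) and VCAM1 (0.39). Centring on the median turned IL12RB1 (0.21), MUC5B (0.21), NEU2 (0.19), ST8SIA2 (0.21), ST8SIA3 (0.22) and ST8SIA5 (0.21), and the mean of all its probe sets turned IL12RB1 (0.57). These sign changes are listed only for genes that passed the threshold in at least 1 of the 2 fits compared. Genes that passed in neither could also change sign, as AGRN did with centring on the median (0.19). Of 215 genes named, 165 kept their call, or their lack of one, with centring on the mean, 208 with the replicate block and 214 with each array centred on its median. Genes with a call kept its direction in these counts, while genes without one may have changed sign. Without 3 arrays that deviate together (treated replicate 3, untreated T84 replicate 3 and Caco-2 replicate 1; chosen after seeing the data), 277 were higher and 317 lower. With no detection calls, differences between dim signals are limited by background of unknown size.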
